A study of Arabidopsis thaliana with 36 samples.

Results

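Expression of the genes for the small subunit of Rubisco, RBCS1A [AT1G67090], RBCS1B [AT5G38430], RBCS2B [AT5G38420] and RBCS3B [AT5G38410], and of RCA [AT2G39730], which encodes Rubisco activase, was followed through cold treatments of Arabidopsis thaliana rosettes. These 5 genes were taken by locus identifier from the 33602 genes of a table of read counts over 36 RNA-seq libraries, and all 5 had enough counts to be tested. The plants were of 2 natural accessions, Col-0, whose freezing tolerance is intermediate, and N14, which is tolerant. Each accession was grown in 3 independent experiments and harvested in 6 conditions, so that there were 12 groups of 3 libraries. The conditions were untreated plants of 28 days, plants of 28 days given 3 days at 4 °C, such plants after a further 7 days at 20 °C (the lag), lag plants given another 3 days at 4 °C (the second cold), untreated plants of 35 days, and plants of 35 days given their first 3 days at 4 °C. The cold chamber had a light intensity of 90 µE against 200 µE during growth, so temperature and light changed together. Cold-treated plants were 3 days older than the plants they were compared with, and lag plants were 3 days older than the 35-day controls. Each library came from 1 pool of 5 replicate samples, with 15 rosettes named in the labels of the 28-day control and of the first cold at 28 days, and 4 in those of the later groups. In RNA from whole rosettes, fewer cells of a type and less RNA per cell cannot be told apart.

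Rubisco fixes carbon dioxide in the Calvin-Benson cycle and is built in the chloroplast from large subunits, encoded by rbcL in the plastid genome, and small subunits, encoded by a family of nuclear RBCS genes and imported after synthesis in the cytosol. The small subunits do not form the active site but are needed for a stable and efficient enzyme. Rubisco activase is an ATPase of the chloroplast stroma that removes inhibitory sugar phosphates from the active site and is known to lose activity in heat. In leaves both are among the most abundant products of nuclear genes, and their transcription is known to respond to light, sugars and the circadian clock.

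RBCS1A lies alone on chromosome 1 (chr1:25048158-25049667) and RCA on chromosome 2 (chr2:16570746-16573692), whereas RBCS1B (chr5:15383167-15385320), RBCS2B (chr5:15380907-15382071) and RBCS3B (chr5:15376988-15378642) form a tandem array of 8.33 kb on chromosome 5 with no other protein-coding gene between them. All 5 genes are on the minus strand, and coordinates and sequences are from RefSeq's TAIR10.1 assembly. The coding sequences of the array differed from each other at 15 to 18 of 546 bases, an identity of 96.7% to 97.3%. RBCS1A was 90.4% to 90.6% identical to each of them. A stretch of 60 bases in the first exon, from the part that encodes the transit peptide, is shown. It was chosen as the stretch with the most differing positions in the early coding sequence, so it is not typical of the whole. The lines below give coding bases 20 to 79, counted from 1 at the start codon, with the 16 positions at which any of the 4 genes differ in capitals.
RBCS1A: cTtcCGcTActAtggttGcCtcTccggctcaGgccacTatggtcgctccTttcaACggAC
RBCS1B: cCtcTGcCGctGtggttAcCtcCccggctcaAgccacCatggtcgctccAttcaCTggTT
RBCS2B: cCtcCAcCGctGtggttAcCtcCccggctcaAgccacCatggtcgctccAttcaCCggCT
RBCS3B: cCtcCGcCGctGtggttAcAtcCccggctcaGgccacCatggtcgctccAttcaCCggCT
Of all runs of 50 coding bases, 51.9% in RBCS1B, 38.0% in RBCS2B and 42.5% in RBCS3B occurred in another RBCS gene, against 3.6% in RBCS1A. At 100 bases the shares were 30% for RBCS1B and RBCS3B and 0% for RBCS2B and RBCS1A. Each counting tool may assign reads of the array to different copies, so the values of its single genes are uncertain. The sum over the 4 genes was tested beside them, but it also differs between tools. In Col-0 the CLC counts of RBCS1B and RBCS3B were on average 1.29 and 1.24 times the STAR counts used here. Those of RBCS1A and RBCS2B were 1.00 and 1.01 times the STAR counts.

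The sequence before the start codon was searched for 4 letter strings known from light-regulated and cold-regulated plant promoters, since most of these genes moved the same way in the cold. Both strands of the 500 bases before the start codon were read, a window chosen after a search of the 250 bases before the annotated gene start had been seen, since that start lies well upstream in some of the genes. The G-box CACGTG was present in RBCS1A, RBCS2B, RBCS3B and RCA and not in RBCS1B, and 9.3% of 27443 protein-coding genes held it in the same window. The contexts of 30 bases, written in the direction of transcription with the G-box in capitals, are shown because 4 of the 5 genes hold the motif.
RBCS1A (chr1:25049491-25049520, minus strand): ggaattatcttcCACGTGgcattattccag
RBCS2B (chr5:15382177-15382206, minus strand): ggagttttctgcCACGTGatcttatcctag
RBCS3B (chr5:15378506-15378535, minus strand): ggagttttctgcCACGTGgccttatcctag
RCA (chr2:16573579-16573608, minus strand): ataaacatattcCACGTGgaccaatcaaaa
The first base of the motif stood 259, 216, 217 and 251 bases before the start codon in this order. The contexts of RBCS2B and RBCS3B also hold an I-box, GATAAG, on the opposite strand, which does not overlap the G-box. The I-box occurred in all 5 genes and in 23.5% of all genes. Both strings together occurred in the same 4 genes and in 2.3% of all. The GT1 box GGTTAA was found in RBCS1A, RBCS1B and RBCS2B and in 24.5% of all genes. The core of the cold-responsive DRE, CCGAC, was in none of the 5 windows and in 23.4% of all. The contexts of RBCS1A, RBCS3B and RCA lie within the annotated span of the gene, upstream of the start codon. In the 250 bases before the annotated gene start, the G-box was present only in RBCS2B of the 5 genes and in 6.5% of all.

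Libraries held between 17861514 and 31046237 counts, and the 5 genes together took from 2.26% to 5.97% of them. The lowest count of any of the 5 genes in a library was 6772, of RBCS2B, so counting error was small beside the spread between pools. Levels are CPM, counts scaled to library size, with TMM scaling. By CPM, RBCS1A was the first or second most abundant transcript in all 12 group means. Over the groups not in the cold RBCS3B ranked 5 to 9, RCA 12 to 17, RBCS2B 19 to 27 and RBCS1B 41 to 48. In cold groups RBCS3B ranked 56 to 107 and RBCS2B 321 to 480, while RBCS1B ranked 19 to 37 and RCA 9 to 18.

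Per kilobase of coding sequence, RBCS1A had a median level over the 18 libraries not in the cold of 58377 CPM per kilobase, above all libraries of the other genes. RBCS3B followed with 18647, also apart from its neighbours. RBCS2B (median 8586), RBCS1B (4720) and RCA (4235) had overlapping ranges. In the 18 cold libraries the order of the medians was RBCS1A at 37181, RBCS1B at 3663, RCA at 2075, RBCS3B at 1979 and RBCS2B at 597 CPM per kilobase. RBCS1B, RCA and RBCS3B each overlapped with one another there, and RBCS2B lay below every library of the other 4. The coding length used was 543 bases for RBCS1A, 546 for each gene of the array and 1425 for RCA. Annotated exon lengths, 1894 bases for RBCS1B and 935 for RBCS2B, differ more and were not used for these levels.

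**Figure D1:**
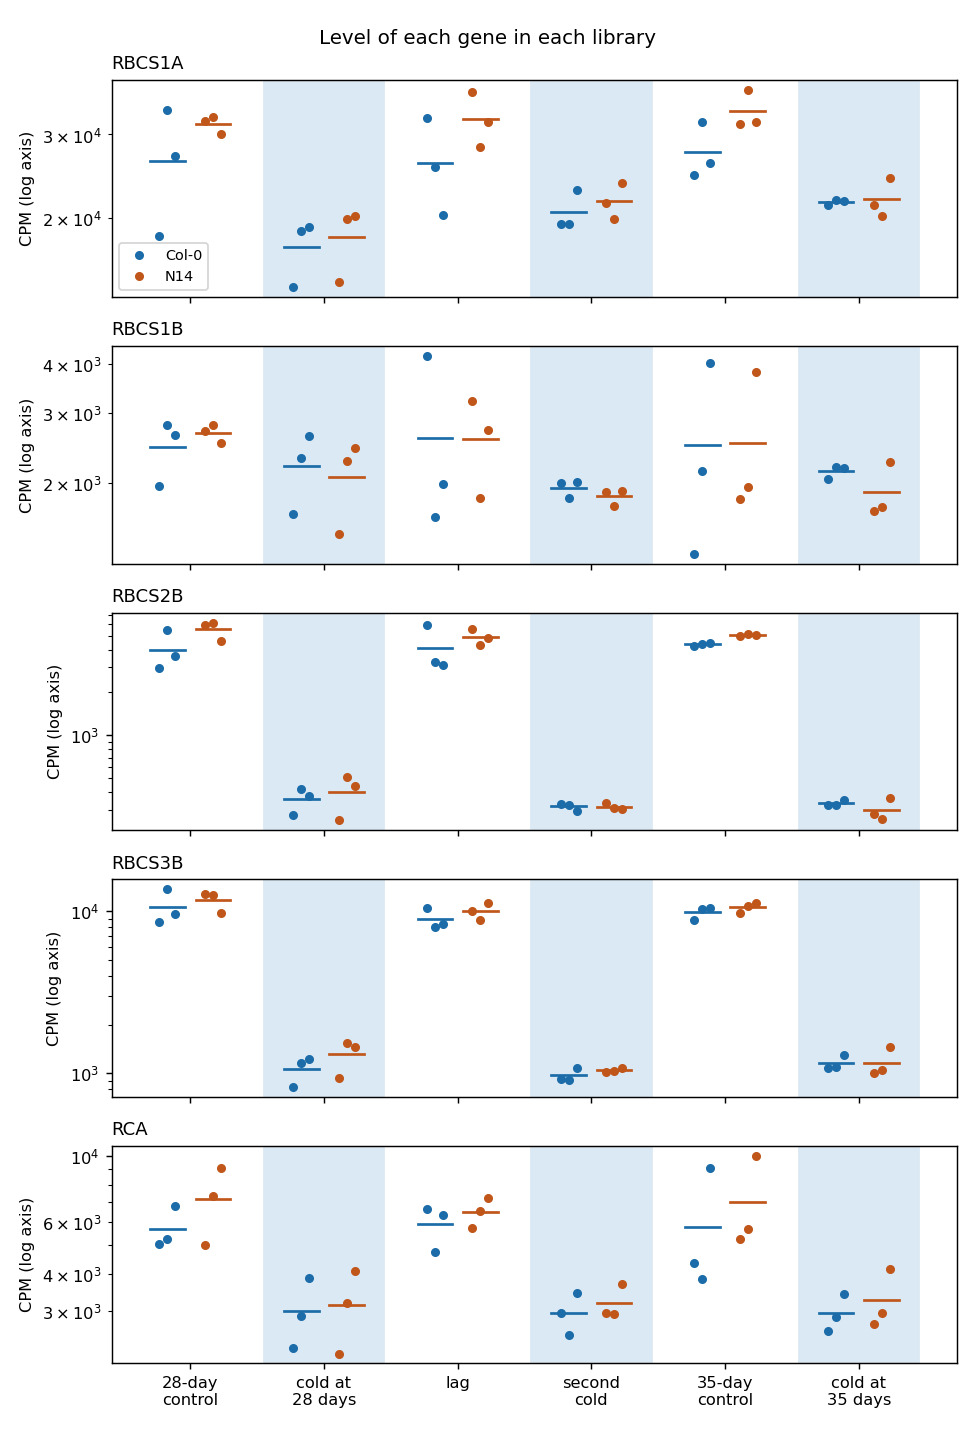
Level of each gene in each of the 36 libraries, in CPM on a log axis with a different range for each gene, by condition and accession. Points are libraries, in the order of experiments 1 to 3 from left to right, lines are group means and shaded columns are cold treatments. RBCS2B and RBCS3B separate completely between cold and not cold, whereas RBCS1B overlaps in most comparisons.

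Each cold treatment was compared with the plants it started from, in edgeR's quasi-likelihood test over all 20263 genes tested with Benjamini-Hochberg adjustment, the threshold for a call being an adjusted p of 0.05. RBCS2B and RBCS3B fell steeply in all 6 comparisons, RCA fell by about 1 on the log2 scale in all 6, RBCS1A fell by less in 4 of 6, and RBCS1B was called in none. The sum of the 4 small subunit genes fell in all 6. In Col-0, 4 of the 5 genes fell in the first cold at 28 days, where 28.0% of all genes fell. Of the 5, 3 fell in the first cold at 35 days, against 25.2% of all genes, and 3 in the second cold, against 18.7%. In N14, 4 of the 5 fell in each comparison, where the share of all genes that fell was 29.2% at 28 days, 29.0% at 35 days and 24.2% in the second cold. RBCS2B, RBCS3B and RCA were lower in all 6 comparisons, as were 12.9% of all genes. The median change of the 5 genes lay between -1.18 and -0.92 on the log2 scale, and that of all genes between -0.08 and 0.00. In Col-0 the cold libraries lay wholly below their comparison libraries for 3, 4 and 3 of the 5 genes (first cold at 28 days, at 35 days, second cold), as they did for 32.3%, 27.6% and 23.8% of all genes. In N14 they did so for 5, 4 and 4 of the 5 genes and for 30.7%, 29.9% and 28.0% of all genes.

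RBCS2B, the copy in the middle of the array, had the largest change of the 5 genes. In Col-0 its level was 2973, 5449 and 3576 CPM in the 28-day controls and 276, 420 and 376 CPM after cold. N14 controls held 5893, 6165 and 4586 CPM and cold plants 254, 509 and 441 CPM after cold. No cold library came near a control library in either accession. At 35 days RBCS2B stood at 4256, 4358 and 4421 CPM in Col-0 controls and at 325, 323 and 352 CPM after the first cold. In N14 the values were 4975, 5150 and 5076 CPM in controls and 280, 261 and 364 CPM after cold. The 35-day controls were the most even of the groups not in the cold. In the lag plants RBCS2B was back at 5906, 3250 and 3129 CPM in Col-0, and it fell again to 332, 327 and 298 CPM in the second cold. In N14 the lag values were 5531, 4320 and 4790 CPM and those of the second cold 334, 308 and 304 CPM. The groups were again apart. The log2 change of RBCS2B was -3.48 ± 0.25 (SE) in Col-0 and -3.79 ± 0.26 in N14 at 28 days, with adjusted p = 3.27e-11 and 1.24e-11. It was -3.70 ± 0.26 and -4.07 ± 0.26 at 35 days and -3.68 ± 0.26 and -3.95 ± 0.26 in the second cold. These falls are 11.2-fold to 16.8-fold.

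RBCS3B, the most abundant copy after RBCS1A in untreated plants, fell with a similar pattern. In Col-0 it stood at 8620, 13702 and 9605 CPM in 28-day controls and at 823, 1150 and 1222 CPM after cold. In N14 it stood at 12756, 12570 and 9789 CPM in these controls and at 932, 1540 and 1448 CPM after cold. Every cold library was below every control library by a wide margin. At 35 days the Col-0 controls held 8903, 10323 and 10466 CPM and the cold plants 1083, 1100 and 1296 CPM. The N14 controls held 9714, 10800 and 11334 CPM and the cold plants 998, 1046 and 1447 CPM. These groups did not overlap either. In the lag RBCS3B was at 10538, 7975 and 8307 CPM in Col-0 and in the second cold at 919, 911 and 1081 CPM. In N14 it was at 10040, 8857 and 11268 CPM in the lag and at 1016, 1029 and 1080 CPM in the second cold, again with no overlap. The log2 change of RBCS3B was -3.32 ± 0.21 in Col-0 and -3.16 ± 0.21 in N14 at 28 days, -3.09 ± 0.21 and -3.19 ± 0.21 at 35 days, and -3.20 ± 0.21 and -3.27 ± 0.21 in the second cold. The adjusted p ran from 3.31e-12 to 2.17e-11, and the falls are 8.53-fold to 9.99-fold.

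RBCS1A, the dominant small subunit gene, fell in 4 of the 6 comparisons, and by far less than RBCS2B and RBCS3B. In Col-0 it was at 18287, 33735 and 27055 CPM in 28-day controls and at 14272, 18807 and 19103 CPM after cold. These groups overlapped, since the control of experiment 1 was lower than 2 of the cold pools. The fall of 0.60 ± 0.18 on the log2 scale (adjusted p = 0.00747) was not called without the cold pool of experiment 1, at -0.47 with adjusted p = 0.0535, or without the control pool of experiment 2, at -0.38 with adjusted p = 0.1. It was also not called when only the 2 groups entered the fit (adjusted p = 0.0725). In N14 RBCS1A was at 31979, 32726 and 30010 CPM in 28-day controls and at 14678, 19941 and 20154 CPM after cold, with no overlap and a fall of 0.79 ± 0.19 (adjusted p = 0.000676).

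At 35 days RBCS1A in Col-0 was at 24584, 31882 and 26114 CPM in controls and at 21279, 21795 and 21738 CPM after cold. The groups did not overlap, but the change of -0.35 ± 0.18 was not called (adjusted p = 0.114). In N14 it went from 31586, 37305 and 31811 CPM to 21284, 20224 and 24307 CPM, without overlap, a fall of 0.61 ± 0.18 (adjusted p = 0.00646). In the lag RBCS1A stood at 32498, 25625 and 20276 CPM in Col-0 and in the second cold at 19462, 19420 and 22934 CPM. These overlapped, and the change of -0.34 ± 0.18 was not called (adjusted p = 0.141), though without the lag pool of experiment 3 it was -0.49 and called (adjusted p = 0.0484). Without the lag pool of experiment 1 it was -0.15. In N14 the lag values were 36911, 28267 and 31826 CPM and those of the second cold 21506, 19849 and 23752 CPM. The groups were apart and RBCS1A fell by 0.58 ± 0.18 (adjusted p = 0.0121), a call lost without the lag pool of experiment 1 (-0.47, adjusted p = 0.0653) or the cold pool of experiment 2 (-0.51, adjusted p = 0.0551).

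RBCS1B, the third member of the array, was not called in any cold comparison, with changes between -0.48 and -0.16 and an SE of about 0.32 in each. Its control levels varied widely between pools. In Col-0 it stood at 1959, 2805 and 2634 CPM in 28-day controls and at 1668, 2314 and 2632 CPM after cold, and the groups overlapped. In N14 the values were 2702, 2808 and 2520 CPM in these controls and 1487, 2270 and 2442 CPM after cold, the only cold comparison of the 6 in which RBCS1B did not overlap. At 35 days the Col-0 controls ran from 1322 over 2142 to 4009 CPM and the cold plants held 2048, 2188 and 2181 CPM. The N14 controls held 1815, 1950 and 3802 CPM and the cold plants 1695, 1738 and 2262 CPM. The Col-0 cold plants lay inside the control range, and 2 of the N14 cold pools lay just below it. In the lag RBCS1B was at 4180, 1643 and 1980 CPM in Col-0 and at 3213, 1826 and 2724 CPM in N14. In the second cold it was at 1996, 1830 and 2003 CPM in Col-0 and at 1897, 1742 and 1910 CPM in N14, and both accessions overlapped. In the table counted with BWA the 3 changes of RBCS1B in N14 were called, at -0.66 (adjusted p = 0.0489), -0.73 (0.0314) and -0.76 (0.0294) for 28 days, 35 days and the second cold. Relative to STAR, the BWA count of RBCS1B ran from 1.16 to 1.56 between N14 libraries. Its mean share of the summed RBCS counts was 6.88% with BWA and 5.20% with STAR in 28-day N14 controls. After cold at 28 days it was 10.4% and 9.30%. The part of this in the 3 calls was not tested.

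The summed small subunit level was 31838, 55701 and 42860 CPM in the 28-day Col-0 controls and 17039, 22692 and 23332 CPM after cold. For N14 the sum was 53326, 54257 and 46901 CPM in these controls and 17348, 24266 and 24486 CPM after cold. The cold libraries lay below the control libraries in all 6 comparisons. The log2 change of the sum was -1.05 ± 0.18 in Col-0 and -1.22 ± 0.18 in N14 at 28 days, -0.81 ± 0.18 and -1.03 ± 0.18 at 35 days, and -0.81 ± 0.18 and -1.0 ± 0.18 in the second cold. The adjusted p ran from 2.66e-06 to 0.000781 and the falls from 1.75-fold to 2.34-fold. All 6 calls of the sum held in each of the alternatives tried and without each library in turn.

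**Figure D2:**
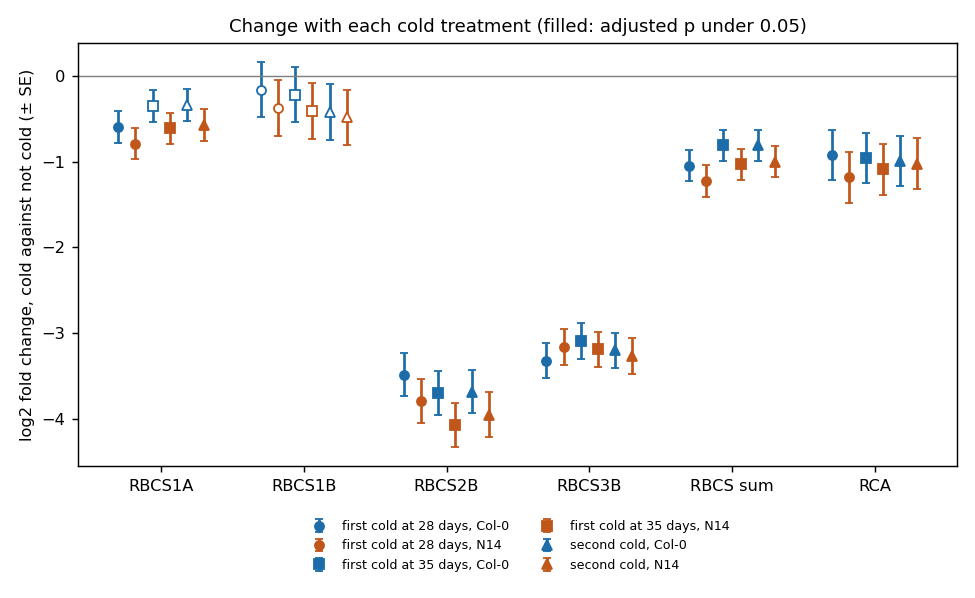
Change of each gene and of the summed small subunit counts in the 6 cold comparisons, as log2 fold change ± SE. Filled symbols have an adjusted p under 0.05 and open symbols do not. RBCS2B and RBCS3B lie between -4.07 and -3.09, RCA and the sum lie between -1.22 and -0.81, and the open symbols are those of RBCS1B and 2 of RBCS1A.

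RCA, the activase gene, fell in all 6 comparisons. In Col-0 it was at 5064, 5261 and 6757 CPM in 28-day controls and at 2250, 2889 and 3890 CPM after cold. The N14 controls were at 5025, 7314 and 9109 CPM and the cold plants at 2161, 3188 and 4089 CPM after cold. Neither accession overlapped between groups. At 35 days the Col-0 controls held 4353, 3843 and 9071 CPM and the cold plants 2573, 2865 and 3438 CPM. The N14 controls held 5256, 5695 and 10009 CPM and the cold plants 2711, 2963 and 4155 CPM. The control pools of experiment 3 stood far above the other controls here, and the groups did not overlap. In the lag RCA was at 6642, 4762 and 6341 CPM in Col-0 and in the second cold at 2963, 2494 and 3451 CPM. In N14 it was at 5729, 6515 and 7241 CPM in the lag and at 2952, 2932 and 3691 CPM in the second cold, with no overlap. The log2 change of RCA was -0.92 ± 0.29 in Col-0 (adjusted p = 0.00947) and -1.18 ± 0.29 in N14 (0.0012) at 28 days. It was -0.96 ± 0.29 (0.00754) and -1.09 ± 0.29 (0.0027) at 35 days, and -0.99 ± 0.29 (0.00797) and -1.02 ± 0.29 (0.00548) in the second cold. In Col-0 the call at 28 days was lost without the cold pool of experiment 1 (-0.75, adjusted p = 0.0589). The call at 35 days was lost without the control pool of experiment 3, which moved the change to -0.47 (adjusted p = 0.168).

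Within each experiment the cold library was set against its own comparison library, which gave 18 pairs over the 6 comparisons. RBCS2B, RBCS3B, RCA and the sum were lower in the cold in 18 of 18 pairs. RBCS1A was lower in 17 of 18 pairs and RBCS1B in 14 of 18, with changes of RBCS1B from -1.07 to 0.63.

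The make-up of the small subunit transcripts was tested as each copy's share of the summed counts, with 9 cold against 9 other libraries of an accession by exact two-sided permutation and Benjamini-Hochberg adjustment over 15 tests. In the cold the RBCS1A share rose and the shares of RBCS2B and RBCS3B fell. In Col-0 the RBCS1A share was 57.4% to 66.6% (median 61.2%) in libraries not in the cold and 81.9% to 87.1% (median 85.7%) in cold libraries. In N14 it was 60.0% to 67.6% (median 64.0%) and 82.2% to 87.8% (median 86.6%). The ranges of RBCS1A were far apart in both accessions. The mean share rose from 61.7% ± 3.1 (SD) to 85.0% ± 1.7 in Col-0 and from 63.7% ± 2.8 to 85.6% ± 2.2 in N14, each with p = 4.1e-05, the smallest these permutations can give, and adjusted p = 0.000103. The permutations treat the libraries of an accession as independent, although they come from several conditions and only 3 experiments.

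RBCS3B made up 19.8% to 27.1% (median 22.8%) of the small subunit counts in Col-0 not in the cold and 4.05% to 5.24% (median 4.38%) in the cold. In N14 it made up 18.0% to 23.9% (median 20.9%) and 3.99% to 6.35% (median 4.49%). The share of RBCS2B went from 8.34% to 11.1% (median 9.34%) in Col-0 not in the cold down to 1.13% to 1.85% (median 1.46%) in the cold. In N14 it was 9.33% to 11.4% (median 9.93%) and 1.12% to 2.1% (median 1.34%). The cold and other libraries were separate for both copies in both accessions, with adjusted p = 0.000103 in each of these 4 tests. The share of RBCS1B rose from 5.78% ± 1.77 to 9.03% ± 1.16 in Col-0 (adjusted p = 0.00123) and from 5.07% ± 1.14 to 8.07% ± 1.03 in N14 (adjusted p = 0.000264), with overlapping ranges. A share is relative to the sum, which itself fell, and RBCS1B was not called by level. All these differences were called with each of the other 6 tables, per kilobase of exon length, without each experiment and over pairs of the same experiment. The shares printed are those of STAR counts, and their level depended on the tool. In 28-day Col-0 controls the mean RBCS1A share was 60.4% with STAR and 60.8% with TopHat. With BWA, CLC, kallisto, RSEM and Salmon it was 55.8% to 56.6%. The mean RBCS3B share there was 24.7% with STAR, 24.1% with TopHat and 28.3% to 28.9% with those other tools.

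**Figure D3:**
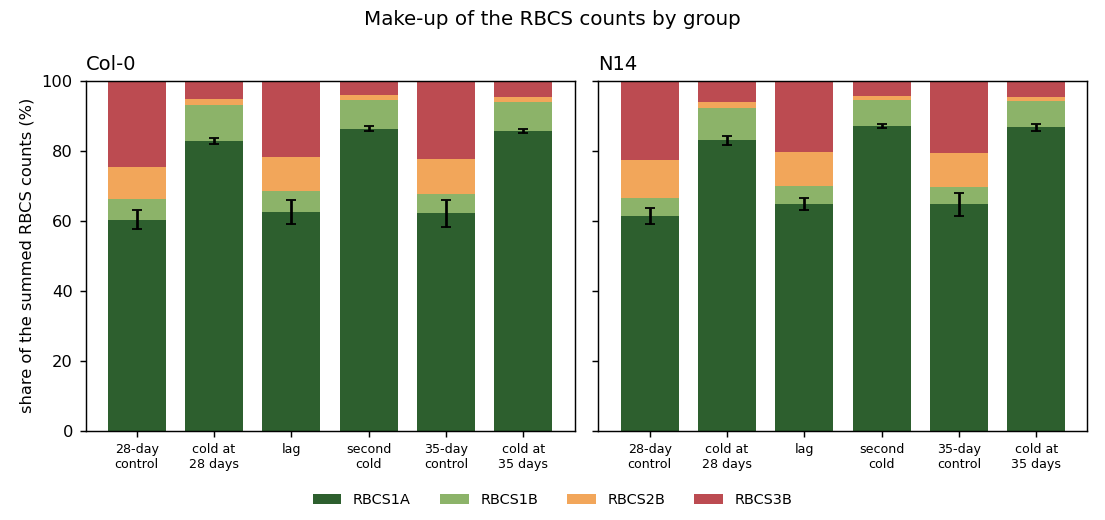
Share of each RBCS gene in the summed RBCS counts (%), as the mean of the 3 libraries of a group, stacked by gene for Col-0 (left) and N14 (right). Error bars are the SD of the RBCS1A share. The RBCS1A share of STAR counts lies near 60 to 65% in the 3 conditions not in the cold and at 83 to 87% in the 3 cold conditions.

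The ratio of RCA to the small subunit sum was tested in the same way. The log2 ratio in Col-0 was -3.66 to -2.31 (median -3.0) in libraries not in the cold and -3.27 to -2.58 (median -2.94) in cold libraries, and the ranges overlapped. In N14 it was -3.41 to -2.36 (median -2.89) and -3.16 to -2.58 (median -2.97), again overlapping. The difference of the means was -0.06 in Col-0 (exact p = 0.718) and 0.00 in N14 (exact p = 1), with SDs of 0.17 to 0.45 within a state, so a change of the ratio was not detectable against this spread.

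Whether a past cold left a trace was examined in lag plants against 35-day controls. None of the 5 genes was called in either accession, where 0% of all genes were called, and the changes lay between -0.15 for RBCS3B in Col-0 and 0.06 for RBCS1B in Col-0, with SEs of 0.18 to 0.32. Across all genes edgeR called 0 in Col-0 and 0 in N14, with 670 and 919 at an unadjusted p under 0.05, and DESeq2 called 4 and 49. In plants of the second cold against those of the first cold at 35 days none of the 5 genes was called either, against 0% of all genes in Col-0 and 0.00494% in N14. The value farthest from 0 was that of RBCS3B in Col-0, at -0.26 ± 0.19, whose libraries of the second cold (919, 911 and 1081 CPM) lay just below those of the first (1083, 1100 and 1296 CPM). RBCS1B, at -0.14 ± 0.32, did not overlap either, with 1996, 1830 and 2003 CPM against 2048, 2188 and 2181 CPM. The second cold lay wholly below the first for 7.17% of all genes in Col-0, and for these 2 of the 5. In Col-0 edgeR called 0 genes in this comparison, with 937 at an unadjusted p under 0.05 and 3 called by DESeq2. In N14 edgeR called 1, with 1765 at an unadjusted p under 0.05, DESeq2 called 181 and edgeR with only the groups compared 532.

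Age was compared between untreated plants of 35 and 28 days. None of the 5 genes was called, against 3.41% of all genes in Col-0 and 0.0197% in N14 in either direction, with changes from -0.14 for RBCS3B in N14 to 0.12 for RBCS2B in Col-0. Floral organ markers did rise with age in Col-0, 6 of 6, from a summed 0.996 to 1.56 CPM at 28 days to 6.05 to 11.6 CPM at 35 days, and 0 of 6 did so in N14, where all genes rose in 1.33% of cases in Col-0 and 0.0148% in N14.

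Accessions were compared in each condition. No gene of the 5 was called between N14 and Col-0 in any of the 6 conditions. Of all genes 12.3% were called in 28-day controls, 11.1% after the first cold at 28 days, 15.7% in the lag, 14.0% in the second cold, 14.0% in 35-day controls and 14.1% after the first cold at 35 days. RBCS1A stood between 0.26 and 0.31 higher in N14 in the 3 conditions not in the cold and between 0.02 and 0.07 higher in the 3 cold ones, each with an SE of 0.18. RBCS2B in 28-day controls was 0.47 ± 0.23 higher in N14 (adjusted p = 0.212), and this was called without the Col-0 control pool of experiment 2, at 0.76 with adjusted p = 0.0400. Differences between accessions in the cold response were tested as interaction terms. None of the 5 genes was called, with 0.301% of all genes called at 28 days, 0.266% at 35 days and 0.262% in the second cold. The terms ran from -0.37 ± 0.32 for RBCS2B at 35 days to 0.16 ± 0.27 for RBCS3B at 28 days.

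Between accessions the copy shares in plants not in the cold depended on the table and on the pairing of the libraries. In the STAR table the RBCS1A share was 1.97 percentage points higher in N14 (adjusted p = 0.243 by the exact permutation test) and the RBCS1B share was 0.72 points lower (adjusted p = 0.405), and neither was called. The RBCS3B share, 22.9% ± 2.3 (SD) in Col-0 and 21.1% ± 1.8 in N14, was 1.81 points lower and not called (adjusted p = 0.135). These tests leave aside that both accessions were grown in the same experiments. When the 9 pairs of the same condition and experiment were compared instead, the RBCS3B share was lower in N14 in 9 of 9 pairs, by -3.16 to -0.25 points (adjusted p = 0.00732 by exact two-sided sign flips). The RBCS1A share was then higher in 7 of 9 (adjusted p = 0.0352) and the RBCS1B share lower in 7 of 9 (0.0426), so that all 3 were called, while the RBCS2B share was not (0.186). Pairs of 1 experiment are not independent of each other, and these tests were added after the data were seen. With kallisto, unpaired, the differences were 3.87 (adjusted p = 0.0249) and -2.33 points (0.00569), and with Salmon 4.88 (0.00691) and -2.41 points (0.0074), all called. The RBCS2B share was 0.56 points higher in N14 with STAR and not called (adjusted p = 0.243), but 1.51 points lower and called with Salmon (adjusted p = 0.001). The counts show where the tables part. Relative to STAR, the Salmon count of RBCS1B was 1.29 ± 0.04 (SD, n = 18) in Col-0 and 0.91 ± 0.05 in N14. That of RBCS2B was 1.00 ± 0.00 in Col-0 and 0.75 ± 0.01 in N14. For RBCS1B the kallisto ratios were 1.15 ± 0.03 in Col-0 and 0.79 ± 0.03 in N14. RBCS1A and RCA lay between 0.99 and 1.01 in all 6 tables in both accessions. RBCS3B was 1.2 to 1.38 times its STAR count in every table but TopHat.

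**Figure D4:**
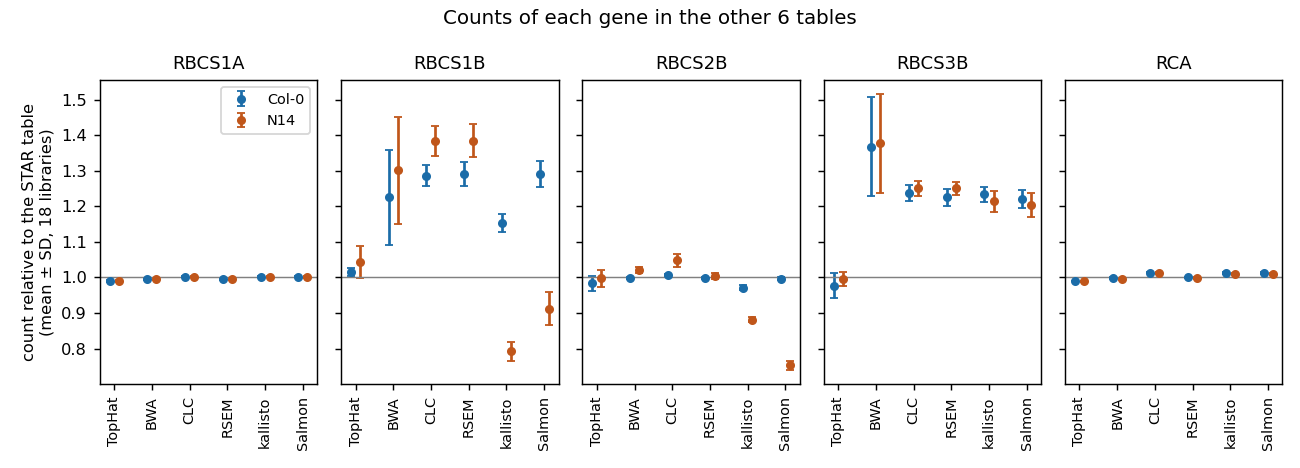
Count of each gene in the other 6 deposited tables relative to the STAR table, as mean ± SD over the 18 libraries of an accession. The line at 1 marks the STAR count. RBCS1A and RCA stay at 1, RBCS3B lies above 1 in 5 tables, and RBCS1B and RBCS2B part between Col-0 and N14 with kallisto and Salmon.

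RCA varied with the experiment in all groups. Libraries numbered 3 in the labels, taken here as experiment 3, were above their group mean of RCA in 12 of 12 groups, by 0.35 on the log2 CPM scale on average (0.12 to 0.77). RBCS1B was above its group mean there in 10 of 12 groups, RBCS3B in 9, RBCS1A in 7 and RBCS2B in 6. Of the morning clock genes, CCA1 was above its group mean in experiment 3 in 12 of 12 groups, by 0.43 on average, and LHY in 7 of 12. Whether the level of RCA and that of CCA1 are linked was not tested. With the experiment as a replicate block, all member calls stayed as they were and RCA fell by 0.94 ± 0.18 in Col-0 at 28 days and by 0.89 ± 0.18 at 35 days.

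**Figure D5:**
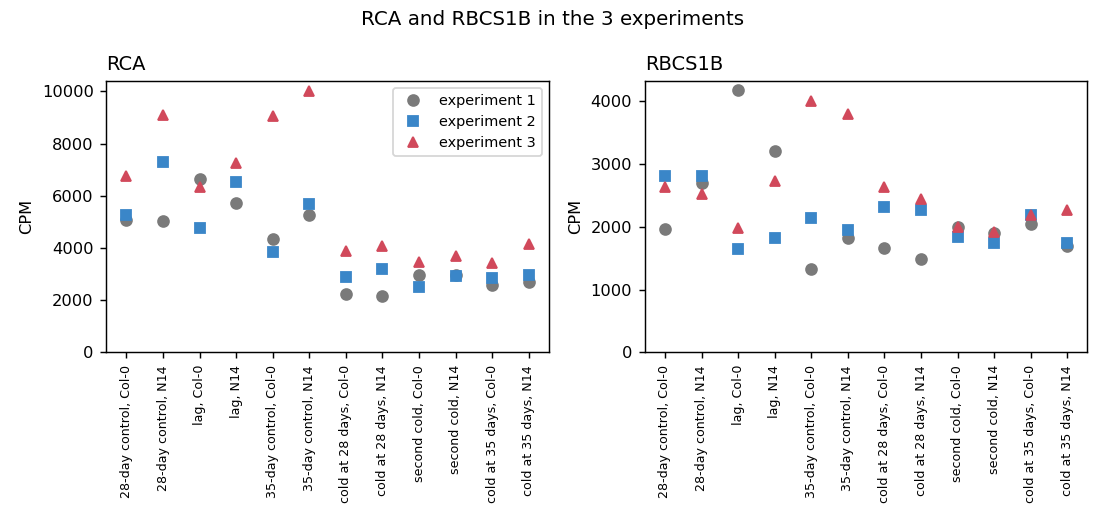
RCA (left) and RBCS1B (right) in CPM in the 12 groups, with the 3 experiments marked by shape and colour. RCA in experiment 3 is the highest of its group in all groups but the lag of Col-0, while RBCS1B has its widest spread in 35-day controls and lag plants.

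Morning clock genes rose in the cold, and root markers went several ways. LHY and CCA1 rose in all 6 cold comparisons, LHY from 2.35 to 15.5 CPM in libraries not in the cold to 97.2 to 153 CPM in cold libraries. The sources used here do not give the hour of sampling. The sum of 5 root markers ran from 9.74 to 139 CPM in libraries not in the cold and from 1.74 to 21.8 CPM in cold ones. PYK10 was called lower in 6 of 6 comparisons, by -4.09 to -2.35 on the log2 scale, and TIP2;3 was too low to be tested. BGLU21 (-8.45 to 4.41) and BGLU22 (-5.69 to 1.81) were each called lower in 1 comparison, and NRT2.1 (0.30 to 1.77) was called higher in 1. The N14 35-day control of experiment 1 had 96.6 CPM of root markers against 14.7 and 18.4 CPM in the other pools of its group. Of 6 floral organ markers none was called in the cold. The part of these in the changes of the 5 genes was not tested.

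The plastid partner of the small subunits, rbcL (RBCL [ATCG00490]), was called lower in none of the 6 comparisons. The libraries were enriched for polyadenylated RNA, which plastid transcripts mostly lack, so that its level here is not that of the total transcript. It stood at 30.2, 31.1 and 29.8 CPM in 35-day Col-0 controls and at 206, 121 and 45.3 CPM after cold. It rose by 2.03 ± 0.47 in this comparison (adjusted p = 0.000653) and by 1.75 ± 0.46 in the first cold of N14 at 28 days (adjusted p = 0.0021). In the other 4 cold comparisons its change was between 0.10 and 0.97 and not called.

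Among genes for the folding and assembly of Rubisco, more were called higher than lower in each of the 6 comparisons. Of 15 such genes, 6, 6 and 7 rose in Col-0 in the first cold at 28 days, at 35 days and in the second cold, and 6, 8 and 8 in N14. All genes rose in 26.7%, 26.7%, 21.6%, 27.6%, 25.0% and 22.4% of cases in the same order. In the same order 3, 2, 1, 3, 1 and 1 of the 15 fell, against 28.0%, 25.2%, 18.7%, 29.2%, 29.0% and 24.2% of all genes. The list's median lay between 0.30 and 0.46. Of the 15, 5 rose in all 6 comparisons, as did 13.8% of all genes. The chaperonin subunit genes CPN60A2 [AT5G18820], CPN60B1 [AT1G55490] and CPN60A1 [AT2G28000], whose family encodes the plastid folding cage, rose by 2.06 to 2.30, 1.25 to 1.51 and 1.2 to 1.61. CPN60B3, of the same family, rose by 0.88 to 1.76. RBCX2, an assembly chaperone gene, fell in all 6, by 0.58 to 0.92.

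Among Calvin-Benson cycle genes, taken without Rubisco, more were called lower than higher in each of the 6 comparisons. Of 19, 10, 8 and 7 fell in Col-0 in the first cold at 28 days, at 35 days and in the second cold, and 12, 10 and 9 in N14, against 28.0%, 25.2%, 18.7%, 29.2%, 29.0% and 24.2% of all genes. In the same order 2, 2, 1, 1, 1 and 1 rose, against 26.7%, 26.7%, 21.6%, 27.6%, 25.0% and 22.4% of all genes. The median of the list lay between -0.55 and -0.30. Of the 19, 7 fell in all 6 comparisons, as did 12.9% of all genes. CP12-3 [AT1G76560] and CP12-1 [AT2G47400], genes of a small regulator that binds cycle enzymes in the dark, changed by -3.44 to -1.17 and by -1.53 to -1.06. GAPA-2 [AT1G12900], a subunit of the glyceraldehyde phosphate dehydrogenase, changed by -1.26 to -0.70 and PGK2 [AT1G56190], a phosphoglycerate kinase, by -1.0 to -0.76. The genes for sedoheptulose bisphosphatase (SBPASE) and transketolase 1 (TKL1) were called in none of the 6, with changes from -0.05 to 0.16 and from -0.07 to 0.31.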

How the data were processed

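The authors deposited 7 gene-level count tables of the 36 libraries, made from polyA-enriched RNA with a strand-keeping kit, per the labels' protocols. The STAR, TopHat, BWA and CLC tables hold whole-number counts as deposited, not normalized. The kallisto, RSEM and Salmon tables hold expected counts as deposited by the authors, which were rounded here. The build was TAIR10, per the submitters' processing notes, which name STAR 2.5.2a, TopHat2 2.1.1, BWA 0.7.13, RSEM 1.2.30, kallisto 0.42.5, Salmon 0.6.0 and HTSeq 0.7.2. How each tool treated strand and reads that match several genes is not stated in those sources. Columns were tied to samples by the column letters in the labels. Sequences were read from TAIR10.1, whose coordinates are those of that assembly and not of the tables, which hold none.

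STAR counts were tested with edgeR 4.0.16 (filterByExpr, TMM, quasi-likelihood F test) in 1 fit of 12 group means, which left 20263 genes. SEs were obtained from the change and its F statistic, and log2 CPM used a prior count of 2. The p-values measure the spread of the libraries around their group means, each group holding pools of 3 independent experiments. The main fit held no term for the experiment, so libraries of the same experiment in different groups were treated as independent. The summed RBCS counts were tested in a separate fit of the same design, in which 1 row with the sum replaced the 4 rows. The edgeR procedure was also run on simulated counts, in which few genes changed, in a single group, and libraries were independent. That setting differs from these data, and no conclusion is drawn from it here. Shares used exact permutation over 48620 splits and, as an alternative added after the data were seen, exact sign flips over 9 pairs of the same experiment, which cannot give a p below 0.0039. Alternatives were RLE size factors, DESeq2 1.42.0, no filter, only the compared groups, the replicate block, the other 6 tables, per-kilobase counts and each library left out.

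The 5 genes, the lists and the tests were chosen with earlier results of these data known. Named were the 5 genes, rbcL, LHY, CCA1, up to 4 genes of the folding and Calvin-Benson lists with the largest mean change among those called alike in all 6 cold comparisons, and the 5 genes most like RCA and 5 most like the RBCS mean over 12 group means. CPN60B3, RBCX2, SBPASE and TKL1 were named after their values were seen. A gene of the folding list that the rule names is not reported here. Same-numbered libraries deviated together with every correlation over 0.1 in 6 of 18 comparisons (first cold at 35 days in Col-0, and N14 against Col-0 in all conditions but the 28-day controls), over a range of -0.36 to 0.65, median 0.18, in 54 pairs. No 2 libraries of a group agreed within sampling noise, the chi-square per gene running from 8.2 to 102 over 36 pairs.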

Additional observations from a re-analysis of the deposited data

How the results depend on the processing

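Of 2415 values of the genes, the sum and the shares under an alternative, 2395 kept their call, and every call of RBCS2B, RBCS3B and the RBCS sum in the cold did. With the BWA table RBCS1B was called in N14 at -0.66, -0.73 and -0.76 (first cold at 28 days, at 35 days, second cold). With only the groups compared, RBCS1A in the first cold at 28 days in Col-0 was -0.59 and not called. Between accessions the RBCS1A and RBCS1B shares were called with kallisto (3.87 and -2.33 points) and Salmon (4.88 and -2.41), and the RBCS2B share turned to -1.51 with Salmon; the cause was not tested. Over pairs of the same experiment, a replicate block added after the data were seen, the RBCS1A, RBCS1B and RBCS3B shares were called between accessions, at 1.97, -0.72 and -1.81 points. Without each library in turn the change in the first cold at 28 days in Col-0 ran from -0.81 to -0.38 for RBCS1A and from -1.15 to -0.75 for RCA, RCA in the first cold at 35 days in Col-0 from -1.18 to -0.47, RBCS1A in the second cold from -0.49 to -0.15 in Col-0 and from -0.66 to -0.47 in N14, and RBCS2B between accessions in 28-day controls from 0.30 to 0.76.

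Counts of all genes called moved more. For age in Col-0 (690) they were 439 with no filter, 22 with only the groups compared, 1189 with DESeq2 and 62 to 1479 without a library. For age in N14 (4) they were 19 with no filter, 12 with the replicate block, 1 with TopHat, 138 with DESeq2, 0 with only the groups compared and with the BWA, CLC, kallisto, RSEM and Salmon tables, and 0 to 359 without a library. For the second against the first cold they were 1 with only the groups compared and 3 with DESeq2 in Col-0 (0), and in N14 (1) 5 with the replicate block, 6 with BWA, 0 with RSEM, 532 with only the groups compared, 181 with DESeq2 and 0 to 177 without a library. For the lag DESeq2 called 4 in Col-0 and 49 in N14, and leaving out a library 0 to 1 and 0 to 179. With only the groups compared, N14 against Col-0 gave 1268 in 28-day controls, 1604 in the lag, 932 in 35-day controls and 5575 after the first cold at 35 days, and the accession differences in first cold 19 at 28 and 8 at 35 days. DESeq2 gave 182, 164 and 155 for those differences at 28 days, 35 days and in the second cold, and leaving out a library 27 to 89, 22 to 92 and 17 to 53. The replicate block changed no call of the level of the 5 genes or of the sum. Depth did not limit these genes. The counts of RBCS1B, RBCS2B and RBCS3B differ between the tables, and the cause was not tested.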

Other observations

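Over the 12 group means of log2 CPM, RBCS2B and RBCS3B correlated by 0.998, RCA with RBCS2B by 0.986 and RBCS1A with RBCS1B by 0.743, which describes points that share libraries and a common cold split. The genes most like the mean of the 4 RBCS genes were AT4G33660 (r = 0.996), AT4G25260 (0.996), AT1G67325 (0.994), CDSP32 [AT1G76080] (0.994), a thioredoxin-like protein of the chloroplast, and AT2G38025 (0.994), and 868 genes had an r over 0.95. The group means of CDSP32 ran from 5.76 to 8.93 log2 CPM. The genes most like RCA were CA2 [AT5G14740] (r = 0.995), a carbonic anhydrase gene, TUB8 [AT5G23860] (0.995), a beta-tubulin gene, HPR [AT1G68010] (0.993), a hydroxypyruvate reductase of photorespiration, AT5G39530 (0.989) and AT5G45350 (0.988), among 675 with an r over 0.95. Group means of CA2 ran from 8.28 to 10.48 log2 CPM.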
